A study of Mus musculus with 4 samples.

Results

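Open chromatin was examined in the 500 densest clusters of strong ATAC-seq peaks of mouse dermal fibroblasts. ATAC-seq uses the Tn5 transposase to place sequencing adapters in accessible DNA, so a peak marks an accessible stretch. A peak was called strong when it ranked among the 30000 peaks of its library with the highest −log10 p, and the 22646 strong peaks of the Sod2+/+ control more than 1000 bp from either end of a protein-coding gene were joined wherever the gap between neighbours was at most 12.5 kb. This gave 17143 clusters, of which 13384 were a peak on its own, 2689 held 2 peaks and 1070 held 3 or more, and the 500 with most peaks are described here as members. All 366 clusters of 4 or more peaks entered, and of the 704 clusters of 3 peaks the 134 with the highest summed fold enrichment completed the set.

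The series has 4 libraries of C57BL/6 dermal fibroblasts with 1 library per group, all labelled 100 days without saying what the days count. The groups are Sod2+/+ control cells, conditional knockout cells (Sod2-/-, lacking the mitochondrial superoxide dismutase), Sod2+/+ cells given a vehicle, and Sod2+/+ cells treated with rotenone, which blocks complex I of the respiratory chain (250 µM per the labels). The labels do not name the vehicle, the Cre driver or the deleted part of Sod2, nor say whether animals were pooled. Without a second library in any group no difference below has a replicate check or a test. The 95% Wilson intervals cover the counting of peaks only, and peaks of the same cluster share their source.

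Cells often place many accessible elements close together, and such dense stretches, known as stretch enhancers or, when ranked by coactivator or acetylated histone signal, as super-enhancers, commonly lie in or beside genes that define the cell's identity or that respond to signals. In fibroblasts, elements of this kind are known for frequent binding sites of AP-1 (JUN and FOS dimers), TEAD and RUNX factors. ATAC-seq shows that a stretch is open, not that it acts as an enhancer or on which gene. Here a cluster is named by the protein-coding gene assigned to most of its peaks, the gene that spans the peak's midpoint or otherwise the gene with the nearest end, and "(2)" marks a further cluster of the same gene. Distances to a gene run from the cluster's midpoint to the nearer gene end.

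The AP-1 sequence TGANTCA, read on both strands, stood in part of the member DNA that could be read. Sequence was at hand only for RefSeq promoter windows (GRCm38.p6, the assembly behind mm10), 250 bases before to 50 after an annotated transcript start, and 89 of the 2174 member peaks (4.09%) overlapped 107 such windows. The motif was in 20 of these 107 windows (18.7%, interval 12.4 to 27.1), in 9.62% of 1300 windows at other strong control peaks outside gene ends, and in 7.81% of all 32817 windows. Counted by peak, so that overlapping windows of the same peak are not counted again, 17 of 89 member peaks (19.1%, interval 12.3 to 28.5) and 114 of 1093 other peaks (10.4%, 8.75 to 12.4) met a window with it. Of the other sequences searched on both strands, in member windows, other windows and all windows, the TEAD sequence GGAATG was in 15.0%, 14.2% and 14.7%, the RUNX sequence TGTGGT in 15.9%, 16.5% and 16.8%, and the CTCF core AGNNGGC in 78.5%, 72.0% and 59.8%. A match describes the letters and does not show that the factor binds.

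The 6 windows printed next lie wholly inside a member peak, hold the AP-1 sequence and are shown because they differ in the libraries where the peak was strong. They were chosen after their values were seen, all are on the minus strand, and capitals mark TGANTCA.
Lmna, chr3:88503303-88503602, strong in all 4 libraries: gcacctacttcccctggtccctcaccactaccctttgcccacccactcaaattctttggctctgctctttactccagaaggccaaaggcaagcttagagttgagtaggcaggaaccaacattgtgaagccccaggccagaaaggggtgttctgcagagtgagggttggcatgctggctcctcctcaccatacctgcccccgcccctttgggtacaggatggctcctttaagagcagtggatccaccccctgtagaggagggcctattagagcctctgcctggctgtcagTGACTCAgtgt
Fam214b, chr4:43040252-43040551, strong in all 4 libraries: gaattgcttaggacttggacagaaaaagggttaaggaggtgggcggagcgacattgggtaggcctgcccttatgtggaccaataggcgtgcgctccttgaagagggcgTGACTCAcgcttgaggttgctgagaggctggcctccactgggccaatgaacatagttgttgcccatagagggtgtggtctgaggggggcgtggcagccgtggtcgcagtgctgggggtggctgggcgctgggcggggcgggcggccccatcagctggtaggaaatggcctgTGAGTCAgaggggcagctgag
4930471E19Rik, chr10:120636058-120636357, strong in all 4 libraries: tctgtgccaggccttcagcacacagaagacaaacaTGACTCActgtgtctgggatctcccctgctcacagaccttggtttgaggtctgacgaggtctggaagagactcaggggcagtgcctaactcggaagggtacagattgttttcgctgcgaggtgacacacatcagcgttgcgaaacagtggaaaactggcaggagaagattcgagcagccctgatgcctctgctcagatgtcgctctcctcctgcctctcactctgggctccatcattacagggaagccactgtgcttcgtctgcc
Gm33624, chr10:119001146-119001445, strong in control and vehicle: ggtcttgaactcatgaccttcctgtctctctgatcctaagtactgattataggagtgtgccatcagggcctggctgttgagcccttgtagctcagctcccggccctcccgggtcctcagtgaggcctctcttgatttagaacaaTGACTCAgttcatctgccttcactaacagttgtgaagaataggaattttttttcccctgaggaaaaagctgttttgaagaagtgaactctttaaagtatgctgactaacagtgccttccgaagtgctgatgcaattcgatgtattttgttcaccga
Gm36495, chr12:16850886-16851185, strong in control and vehicle: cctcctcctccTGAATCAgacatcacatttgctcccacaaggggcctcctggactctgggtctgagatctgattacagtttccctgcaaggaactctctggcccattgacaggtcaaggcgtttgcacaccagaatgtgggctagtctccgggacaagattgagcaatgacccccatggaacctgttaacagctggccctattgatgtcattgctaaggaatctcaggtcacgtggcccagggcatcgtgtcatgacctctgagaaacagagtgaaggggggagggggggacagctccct
Elf2, chr3:51277465-51277764, strong in control: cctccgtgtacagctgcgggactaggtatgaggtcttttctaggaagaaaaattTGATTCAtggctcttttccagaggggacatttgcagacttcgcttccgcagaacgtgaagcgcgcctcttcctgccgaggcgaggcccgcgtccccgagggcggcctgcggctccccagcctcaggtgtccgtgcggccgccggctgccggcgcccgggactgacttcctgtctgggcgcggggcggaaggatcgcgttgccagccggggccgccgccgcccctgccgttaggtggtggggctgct

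At Lmna, the gene of the nuclear lamins A and C, the printed peak had a fold enrichment of 7.95 in control, 7.34 in Sod2-/- cells, 7.97 with vehicle and 7.77 with rotenone, and its match starts at base 290 of the window. The Fam214b peak, with matches starting at bases 109 and 280, read 7.88, 9.01, 9.03 and 8.94 in the same order. The noncoding transcript 4930471E19Rik lies in a cluster assigned to Hmga2, which encodes a chromatin architecture protein, and its peak read 9.39, 7.05, 10.8 and 8.83. In each of these peaks the 4 libraries stayed at a high fold. The peak at Gm33624, in a cluster assigned to the kinase gene Dyrk2, read 5.53 in control and 5.42 in vehicle, and was listed below the strong peaks at 3.62 in the knockout and 3.14 in rotenone. At Gm36495, near the repressor gene E2f6, the values were 5.20 in control, 3.66 in Sod2-/- cells, 5.11 with vehicle and 3.71 with rotenone. The peak at Elf2, which encodes an ETS family factor, read 4.53, 3.13, 4.35 and 3.02, so that it was strong in control alone. The same letters thus stood in peaks that were strong everywhere and in peaks that were not. A match can lie in the window but outside the peak, as at Gm31718, and peak DNA beyond a window was not read. Over the 17 member peaks that met a window with the sequence, 14 had a strong knockout peak (82.4%, interval 59.0 to 93.8) and 13 a strong rotenone peak (76.5%, 52.7 to 90.4). For the 72 member peaks whose windows lack it the shares were 86.1% (76.3 to 92.3) and 83.3% (73.1 to 90.2), and these intervals overlap. In vehicle they were 88.2% with and 95.8% without the sequence. Among the other control peaks with a window the knockout shares were 86.0% with and 84.3% without it, and the rotenone shares 83.3% and 85.2%. All fold enrichments are the authors' own per-peak values within each list, and the lists differ in their general level, with a median over all peaks of 2.40 in control, 2.23 in Sod2-/- cells, 2.79 with vehicle and 2.75 with rotenone.

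A small set of members stands apart from the rest and includes the largest of them. By limits chosen after seeing the data (under 1000 bp of span per peak, a peak with −log10 p over 400, or a mean control fold under 4), 23 members did so and 477 did not. The member with most peaks, at the start of chromosome 9 (chr9:3000014-3037449) and 316500 bp from its assigned gene Alkbh8, held 58 strong peaks in control, 65 in Sod2-/- cells, 52 with vehicle and 59 with rotenone, packed at 645.4 bp per peak with a median width of 83 bp. The next, chrX:75643532-75674562 near Rab39b, held 20, 21, 12 and 16, and a cluster near Gm2244 on chromosome 14 held 12, 12, 7 and 6. In a cluster near Pex2 on chromosome 3 the highest −log10 p reached 447983. The 23 clusters held 186 of the 2174 control member peaks. Totals, shares of peaks found again and patterns are given with and without them.

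In the remaining 477 members the number of control peaks ran from 3 to 9. The total span of all members was 8.97 Mb, with a median of 16510 bp per cluster, quartiles at 11912 and 22850 bp, and a highest span of 65800 bp. Every peak of 236 members lay inside a protein-coding gene, 182 members had no peak inside a gene and 82 had both. Of single member peaks, 54.0% lay inside genes (interval 51.9 to 56.1), against 50.2% (49.5 to 50.9) of the other strong control peaks outside gene ends. Exons, introns and UTRs were not told apart here. At the limit of the set, the last clusters inside were assigned to Vps13d (2), 1700056E22Rik and Mcub. They had 3 peaks and a summed fold of 24.2 each, rounded to 3 digits and by the rule not below those outside. The first outside were Gpr65, Ccne1 and Arsi, with 3 peaks and less rounded summed folds of 24.21, 24.17 and 24.13.

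Member clusters held 2174 strong peaks in control, 1740 in Sod2-/- cells, 1904 with vehicle and 1653 with rotenone, counted outside gene ends in every list. As a share of all such strong peaks of the library this was 9.60% in control (interval 9.22 to 9.99), 7.71% in the knockout (7.37 to 8.06), 8.39% in vehicle (8.04 to 8.76) and 7.34% in rotenone (7.01 to 7.69). The members were chosen by the −log10 p, fold and positions of the control list itself, so its value is a description, and a lower value in any other library is in part fixed by that choice. Vehicle, which differs from control in neither Sod2 nor rotenone, was the highest of the 3 libraries that did not choose them, and its interval lies above that of rotenone and meets that of the knockout at the edge. Without the 23 clusters that stand apart the counts were 1988, 1544, 1754 and 1490. The share of the list's summed fold that lay in members was 9.19%, 7.93%, 8.19% and 7.54% in the same order. Member peaks had a median fold of 6.39 in control, 5.63 in Sod2-/- cells, 6.93 with vehicle and 6.11 with rotenone, against 6.68, 5.32, 6.99 and 5.81 in the other strong peaks outside gene ends of the same list.

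**Figure D1:**
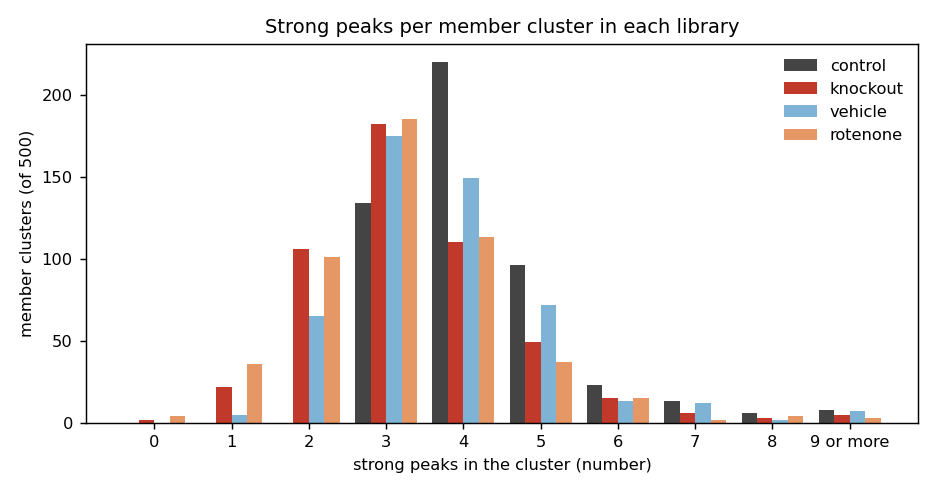
Number of member clusters (vertical axis, of 500) by the number of strong peaks they held (horizontal axis) in each of the 4 libraries, 1 bar per library. Control, which chose the members, starts at 3, while the knockout and rotenone bars extend to 0, with 2 and 4 clusters holding no strong peak.

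Per cluster, the mean number of strong peaks was 4.35 in control, 3.48 in Sod2-/- cells, 3.81 with vehicle and 3.31 with rotenone. Clusters with 5 or more numbered 146, 78, 106 and 61 in that order. Without a strong peak were 2 members in the knockout, 4 in rotenone and 0 in vehicle.

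The comparison of rotenone with vehicle uses neither the library that chose the members nor the knockout. It is not free of that choice, because vehicle, like control, is Sod2+/+ without rotenone. Of control member peaks, 86.8% had a strong vehicle peak and 74.0% a strong rotenone peak. The choice by control may favour vehicle over rotenone and over the knockout. These shares cannot tell that apart from a difference between the libraries themselves. The counts were not repeated on clusters chosen by rotenone or the knockout. Rotenone had fewer strong peaks than vehicle in 239 members, the same number in 191 and more in 70, or 86.8 rotenone peaks for each 100 vehicle peaks. A count 1.5-fold or more lower was found in 131 members (26.2%, interval 22.5 to 30.2), where all 1070 clusters of 3 or more peaks gave 34.9%. A count 1.5-fold or more higher was found in 33 members (6.60%, interval 4.74 to 9.12), where all 1070 gave 10.1%. The members' shares were below the background in both directions, and the clusters outside the set hold 3 peaks each in control, where a change from 3 to 2 already counts as 1.5-fold. Without the 23 clusters that stand apart rotenone had 84.9 peaks per 100 of vehicle, 27.3% of members were lower and 6.08% higher.

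The knockout set against vehicle, which shares the vehicle library with the comparison above, had fewer strong peaks in 216 members, the same number in 186 and more in 98, or 91.4 knockout peaks per 100 of vehicle (88.0 without the 23 clusters). The knockout was 1.5-fold or more lower in 128 members (25.6%, background 34.1%) and higher in 46 (9.20%, background 11.9%), or 26.4% and 7.97% without the 23 clusters. Against control, the library that chose the members, it was lower in 176 (35.2%, background 49.4%) and higher in 2 (0.400%, background 0.280%), or 36.5% and 0.210% without them. Vehicle against control was lower in 87 (17.4%, background 31.0%) and higher in 0 (background 0%), a comparison that involves neither Sod2 loss nor rotenone. In total counts, the knockout had 80.0 peaks per 100 of control (77.7 without the 23 clusters) and vehicle 87.6 (88.2). Rotenone and the knockout were nearest in total, with 95 rotenone peaks per 100 of the knockout, 81 members lower in rotenone (16.2%, background 17.8%) and 46 higher (9.20%, background 13.6%). The knockout and vehicle may also differ in how the cells were prepared, which cannot be told apart from Sod2.

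**Figure D2:**
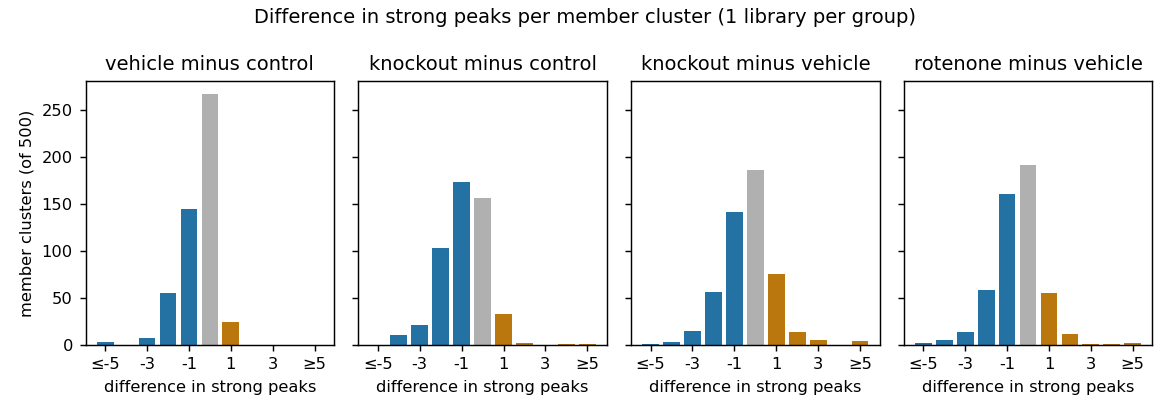
Members (vertical axis, of 500) by the difference in strong peaks between 2 libraries (horizontal axis, number of peaks, with -5 or less and 5 or more pooled), blue for fewer, grey for none and orange for more in the library named first. Vehicle minus control has its highest bar at 0, with 267 members, and knockout minus control has 307 members below 0.

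Peak by peak, 1888 of the 2174 control member peaks (86.8%, interval 85.4 to 88.2) overlapped a strong vehicle peak, 1651 (75.9%, 74.1 to 77.7) a strong knockout peak and 1609 (74.0%, 72.1 to 75.8) a strong rotenone peak. The shares without a strong partner were 13.2% in vehicle, 24.1% in the knockout and 26.0% in rotenone, against 15.9%, 27.1% and 27.9% over all 22646 control peaks outside gene ends. Without the 23 clusters the shares without a strong partner were 13.2%, 25.9% and 27.6%, nearer to those of all control peaks in the knockout and rotenone. Member peaks also ranked higher than others, with 35.9% of them in the strongest of 4 equal groups by control rank. Within these rank groups member peaks did not have the higher share in the knockout: in the strongest group 98.1% of member peaks and 98.4% of other peaks had a strong knockout peak, in the next 82.8% and 85.3%, then 60.3% and 63.8%, and in the lowest 44.1% and 44.8%. For rotenone the pairs were 97.6% and 98.1%, 80.7% and 84.7%, 57.9% and 63.0%, and 40.4% and 43.8%, with the members lower in all 4 groups. For vehicle they were 99.4% and 99.8%, 98.2% and 98.3%, 83.8% and 83.6%, and 53.8% and 54.7%, with the members lower in 3 of 4. Without the 23 clusters the member shares in the knockout were 98.1%, 82.0%, 58.1% and 42.5%, and in rotenone 97.8%, 79.7%, 56.5% and 39.1%. In vehicle they were then 99.9%, 98.5%, 85.4% and 53.4%, above the other peaks in 3 of the 4 groups.

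**Figure D3:**
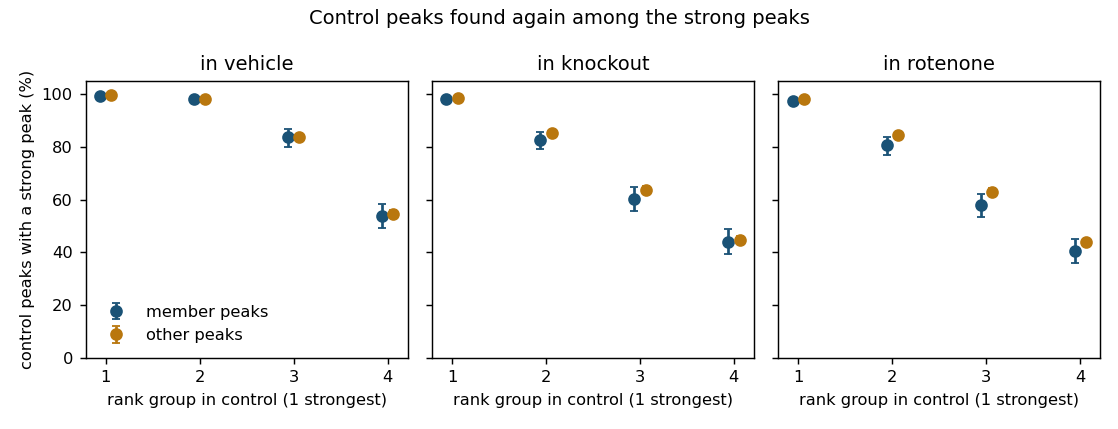
Share of control peaks with an overlapping strong peak (vertical axis, %) by rank group in control (1 is the strongest) in vehicle, the knockout and rotenone, for member peaks and all other strong control peaks outside gene ends, with 95% Wilson intervals that are smaller than the symbols for most points. The share drops with rank in every panel, and member peaks lie at or below the other peaks in the knockout and rotenone panels.

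Peaks that were no longer strong had mostly not disappeared from the lists. Of the 523 member peaks without a strong knockout peak, 358 (68.5%) overlapped one of the knockout's 60000 strongest peaks and 515 (98.5%) a knockout peak of any strength. For rotenone the figures were 362 of 565 (64.1%) and 547 (96.8%), and for vehicle 262 of 286 (91.6%) and 283 (99.0%). The full lists run from 340240 peaks in vehicle to 585165 in the knockout. They cover 38.9 Mb in rotenone to 47.0 Mb in the knockout. How often a weak partner is met by position alone was not tested. In most cases a peak that was no longer strong still overlapped a listed peak of lower rank.

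The most frequent pattern was a peak strong in all 4 libraries, 64.9% of member peaks (interval 62.9 to 66.9) and 60.4% of other peaks (59.7 to 61.1); without the 23 clusters the member share was 63.3%. Peaks strong in control and vehicle but in neither the knockout nor rotenone made up 271 of 2174 member peaks (12.5%), where all 22646 control peaks outside gene ends gave 12.5%. Without the 23 clusters the member share was 13.5% (268 of 1988). Peaks strong in control alone were 6.58% of member peaks and 7.90% of others. By cluster, all control peaks were found again in 294 members in vehicle, 170 in the knockout and 157 in rotenone. The same share over all 1070 clusters is not given here, and it depends on how many peaks a cluster holds. These counts are therefore not read as a trait of the members. Clusters with 2 or more missing numbered 60 in vehicle (12.0%), 148 in the knockout (29.6%) and 157 in rotenone (31.4%). Over all 1070 clusters of 3 or more peaks the shares were 9.07%, 25.6% and 26.2%, and members hold more peaks that can be missing. The knockout and rotenone sets had 117 clusters in common, 79.1% of the knockout's and 74.5% of rotenone's, and the knockout and vehicle sets 30, 20.3% of the knockout's and 30 of the 60 of vehicle. Over all 1070 clusters the knockout and rotenone sets had 69.3% and 67.9% in common, and the knockout and vehicle sets 16.4% and 46.4%. Strong knockout and rotenone peaks were also narrower, with median widths in members of 298 and 295 bp against 357 in control and 368 in vehicle. The other strong peaks outside gene ends were narrower too, at 265 and 241 bp against 331 in control and 303 in vehicle. The part of width and list strength in these counts was not tested.

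Several of these peaks stood together in some clusters. In 51 of the 500 members 2 or more peaks were strong in control and vehicle alone, against 80 of all 1070 clusters (7.48%). In 10 of the 500 members 3 or more were, against 11 of the 1070 (1.03%). Among these 10 were Foxk1 with 4, and Itpr1, Synpo, Lrig1, Phc2, Cmip, Atf7ip and BC035044 with 3 each. The 1070 include the members, and members hold more peaks that can count here. By single peak the share was 12.5% in members and 12.5% over all control peaks outside gene ends. The clusters named next for a large difference were picked for it, and the size of that difference rests on how the strong peaks were taken. The 30 largest falls had a median of -4 peaks (knockout against control, rotenone against vehicle and knockout against vehicle), and of -1 with the 15000 or the 60000 strongest peaks or when ranked by fold.

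The cluster inside Foxk1 (chr5:142403796-142448449), a forkhead transcription factor that acts in metabolism and autophagy, held 9 strong peaks in control, 5 in Sod2-/- cells, 9 with vehicle and 4 with rotenone. Its 4 peaks absent from the strong knockout and rotenone lists all lie at higher coordinates than its highest ranked peak. The last of them, 470 bp wide, had a fold of 7.28 in control, 3.61 in Sod2-/- cells, 7.41 with vehicle and 3.34 with rotenone. The highest ranked peak, at chr5:142424646-142425425, was strong everywhere, with folds of 9.63, 7.24, 9.98 and 7.90. In the same cluster some peaks were thus kept and others not. With the 60000 strongest peaks of each list the knockout held 2 more peaks than vehicle and as many as control in this cluster, and rotenone 1 fewer than vehicle.

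Phc2, a subunit of the Polycomb complex PRC1, had a cluster inside the gene (chr4:128729736-128743561) with 5 strong peaks in control, 1 in Sod2-/- cells, 4 with vehicle and 0 with rotenone. With the 60000 strongest peaks rotenone held 1 more there than vehicle, and with 15000 the knockout and control did not differ (difference 0). Atf7ip, a partner of the histone methyltransferase SETDB1, had 4, 1, 4 and 0 (chr6:136543179-136554064), and its rotenone minus vehicle difference of -4 was 0 with 15000 peaks and -1 with 60000. Creb3l2, a membrane-bound transcription factor of the secretory pathway, had 5, 3, 5 and 1 (chr6:37415051-37431887), and its difference of -4 was -2 with 15000 and -1 with 60000.

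The cluster inside Lrig1 (chr6:94626628-94648467), a transmembrane protein that restrains EGF receptor signalling, held 5 strong peaks in control, 2 in Sod2-/- cells, 6 with vehicle and 1 with rotenone. Only the peak at chr6:94647574-94648467 was strong in all 4, with folds of 6.23, 8.13, 6.20 and 7.29. Beside it, 1 peak 448 bp wide read 4.99, 3.67, 4.82 and 3.95. Itpr1, the calcium release channel of the endoplasmic reticulum (chr6:108413545-108458547), had 8, 4, 7 and 4, and Uck2, a uridine and cytidine kinase (chr1:167220666-167270308), had 8, 4, 9 and 6. In these 3 clusters the counts of control and vehicle lay above those of the knockout and rotenone. With 15000 strong peaks the knockout minus control difference of -4 was 0 at Uck2 and -2 at Itpr1, and ranked by fold it was -1 at both. At Lrig1 the rotenone minus vehicle difference of -5 was -2 with 15000 peaks, with 60000 and when ranked by fold. At Itpr1 that difference, -3 as counted, was 0 with 60000 peaks and when ranked by fold.

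**Figure D4:**
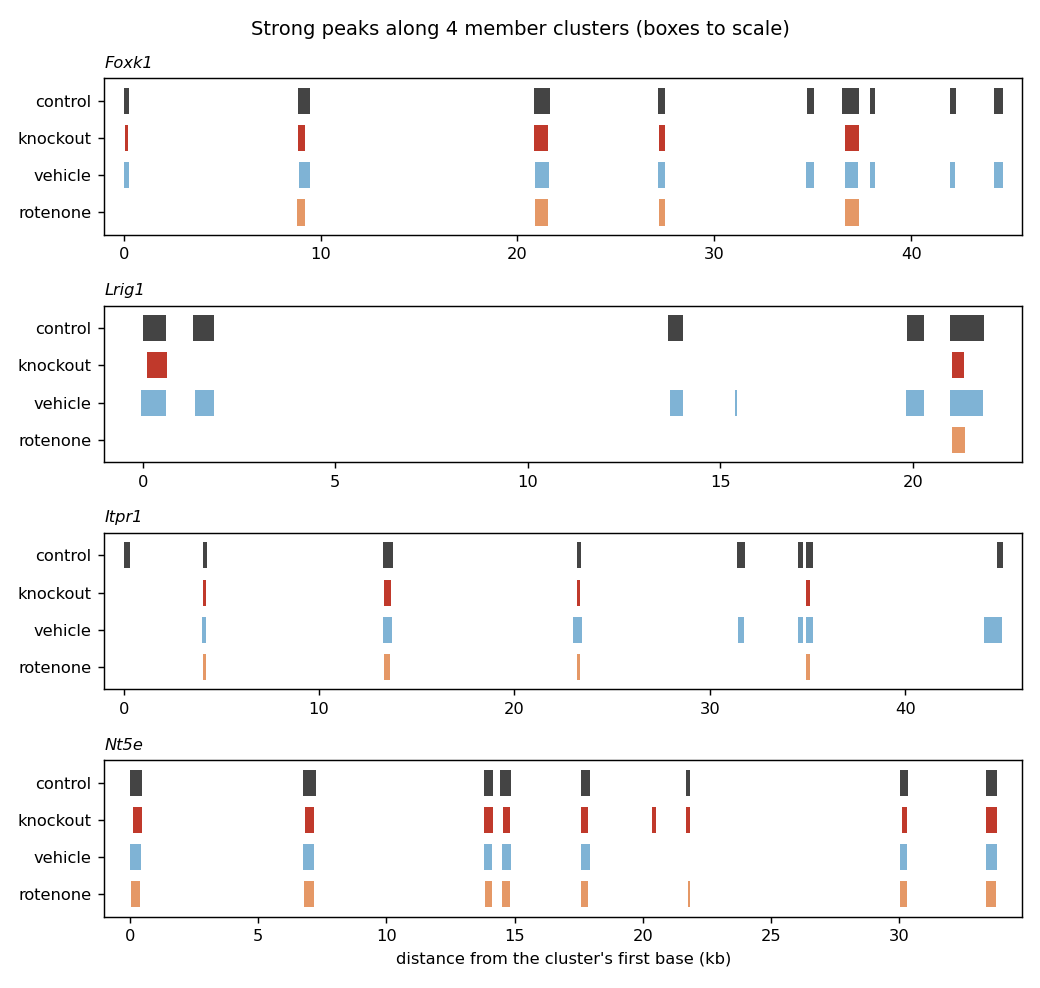
Strong peaks of the 4 libraries along the clusters of Foxk1, Lrig1, Itpr1 and Nt5e, as boxes to scale on a horizontal axis of distance from the cluster's first base (kb). Peaks missing in the knockout and rotenone are seen in the upper 3 clusters, where Itpr1 has 4 knockout peaks and 8 control peaks, and the Nt5e cluster holds 7 to 9 peaks in all 4 libraries.

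Other members kept or raised their number. The cluster near Nt5e (chr9:88259514-88293318), 51193 bp from the gene of the surface nucleotidase CD73, held 8 strong peaks in control, 9 in Sod2-/- cells, 7 with vehicle and 8 with rotenone. Its highest ranked peak read a fold of 9.76 in control, 9.73 in Sod2-/- cells, 11.2 with vehicle and 9.78 with rotenone, and all 8 control peaks had a strong partner in the knockout and in rotenone. With the 60000 strongest peaks the knockout held 1 fewer than control and than vehicle. A cluster 203835 bp from Ppp2r3a, a regulatory subunit of the phosphatase PP2A, held 5, 7, 5 and 6 (chr9:101438424-101472911), and its knockout minus control difference of 2 was 0 with 15000 peaks. Xylt1, which starts glycosaminoglycan chains on proteoglycans, had 5, 5, 4 and 6 (chr7:117470134-117494708), and the cluster near Frmd8 had 4, 5, 2 and 5 (chr19:5812112-5823853). The higher rotenone counts at Xylt1 and Frmd8 turned with another length of the list, to 2 fewer than vehicle at Xylt1 with 15000 peaks and 2 fewer at Frmd8 with 60000.

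Col4a2, a chain of basement membrane collagen, was among the members with 9 control peaks, as were Foxk1, Mbp and Hhat, and spans a cluster (chr8:11372157-11419559) with 9 strong peaks in control, 7 in Sod2-/- cells, 10 with vehicle and 8 with rotenone, all control peaks inside the gene. Its strongest peak read a fold of 12.7 in control, 7.86 in Sod2-/- cells, 10.5 with vehicle and 8.02 with rotenone. Of all protein-coding genes 2.14% had a member, and of those with any strong control peak outside gene ends 5.41%. These shares belong beside the counts of each gene list here and below. Of 40 collagen and matrix genes, 34 had such a peak and 8 had a member: Col4a1, Col4a2, Eln, Tnc, Mmp2, Timp2, Fbln2 and Fbln5. Together these held 37 strong peaks in control, 31 in Sod2-/- cells, 34 with vehicle and 28 with rotenone, with 2 of 8 lower by 1.5-fold or more in rotenone against vehicle (34.9% over all clusters) and 1 higher (10.1%). Mmp2, a gelatinase, had 5, 4, 5 and 4 (chr8:92834828-92850716), and Timp2, its inhibitor, had 4, 2, 3 and 1 (chr11:118321972-118337843). Mmp14, the membrane protease that activates pro-MMP2 and not on that list, had 6, 2, 5 and 2 (chr14:54423510-54449563), and its knockout minus control difference of -4 was -2 with 15000 or 60000 peaks or when ranked by fold. Its widest peak, 851 bp, was strong in all 4 with folds of 6.06, 9.06, 5.79 and 7.22.

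Of 21 genes for fibroblast surface and lineage markers, 4 had a member (Lrig1, Pdpn, Itga8 and Nt5e), with 26 strong peaks in control, 24 in Sod2-/- cells, 25 with vehicle and 20 with rotenone over 5 clusters. Pdpn, the glycoprotein podoplanin, had 4, 5, 4 and 3 (chr4:143271557-143295791). The cluster near Itga8, an integrin chain of mesenchymal cells, had 4 in every library (chr2:12316431-12326201). Of 29 actin, adhesion and myofibroblast genes, 4 had members (Itga5, Itgav, Myo1e and Tns3), with 24, 18, 24 and 20 peaks. Myo1e, a membrane-bound myosin, had 6, 5, 6 and 6 (chr9:70263155-70291156).

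Among 35 growth factor and receptor genes, 5 had a member (Igf2r, Insr, Egfr, Notch1 and Notch2), with 21 strong peaks in control, 12 in Sod2-/- cells, 18 with vehicle and 11 with rotenone. Of these 5, 3 were lower by 1.5-fold or more in rotenone against vehicle (34.9% over all clusters), 3 in the knockout against vehicle (34.1%) and 0 higher in either (10.1% and 11.9%), and a set of 5 is small. The cluster inside Egfr, the EGF receptor, had 4, 2, 4 and 2 (chr11:16830628-16849228). Its last peak read a fold of 6.60 in control, 3.06 in Sod2-/- cells, 6.98 with vehicle and 3.22 with rotenone. Notch1, a receptor of cell contact signalling, had 6, 3, 5 and 4 (chr2:26493612-26526179), and Notch2, a receptor of the same family, had 4, 1, 2 and 0 (chr3:98085843-98107167). The knockout and rotenone counts lay below those of control and vehicle at all 3 receptors.

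TGF-β and BMP signalling had 5 of 29 genes with a member (Tgfbr3, Smad3, Smad7, Ltbp1 and Fstl1), with 19 strong peaks in control, 12 in Sod2-/- cells, 19 with vehicle and 13 with rotenone. Of these, 4 were lower by 1.5-fold or more in rotenone against vehicle (34.9% over all clusters) and 4 in the knockout against vehicle (34.1%), and 1 was higher in each (10.1% and 11.9%). Smad3, a receptor-activated effector, had 4, 3, 5 and 3 (chr9:63698654-63719080), and Smad7, an inhibitor of the pathway, had 4, 2, 4 and 2. Fstl1, a secreted glycoprotein that binds BMP ligands, had 5, 3, 6 and 4 (chr16:37788241-37815080). Ltbp1, which holds latent TGF-β in the matrix, differed, with 3, 2, 1 and 3 (chr17:75251323-75258634).

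Of 15 AP-1 subunit genes only Fosb had a member, with 2 of its 4 peaks inside the gene (chr7:19308177-19320264), with 4 strong peaks in control, 2 in Sod2-/- cells, 2 with vehicle and 2 with rotenone. Among 23 genes of senescence and cell cycle inhibitors, 3 had a member: a cluster 48761 bp from Myc, the growth-promoting transcription factor (chr15:62028425-62049820), with 5, 2, 3 and 1, Igfbp7, a secreted binding protein (chr5:77354598-77368065), with 4, 1, 4 and 3, and Cxcl1, a chemokine, with 3 in each. YAP and TEAD factors and targets had 2 of 20 (Vgll4 and Ptpn14, with 9, 6, 7 and 5 peaks), antioxidant genes 1 of 23 (Hmox1, 3, 2, 3 and 2), and stress and glucocorticoid genes 1 of 20 (Nfkbia, 4, 4, 3 and 3). No member was assigned to any of 40 dermal fibroblast and mesenchymal transcription factor genes, although 33 of them had a strong control peak outside gene ends, nor to 16 housekeeping or 20 complex I genes. None was assigned to Sod2, Igf1, Cdkn2a or Cdkn1a.

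**Figure D5:**
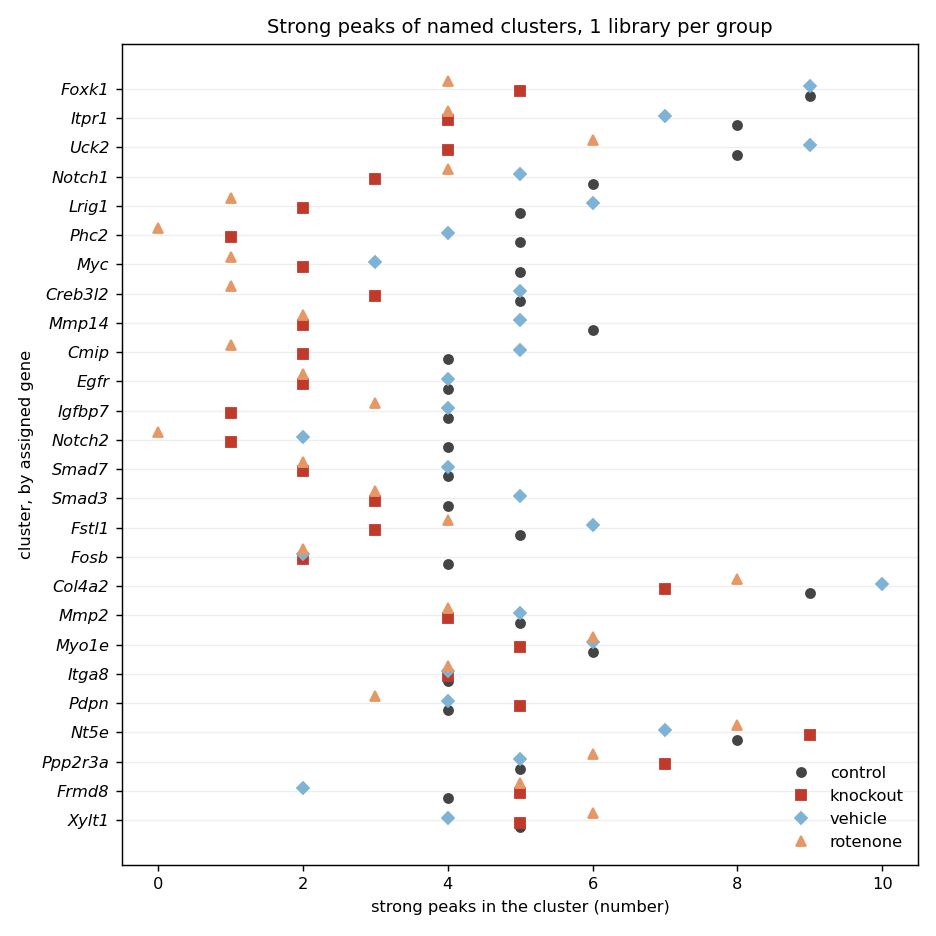
Number of strong peaks (horizontal axis) in 26 named member clusters (vertical axis, by assigned gene), 1 symbol per library. From Foxk1 to Fstl1 the knockout and rotenone symbols lie left of the control symbol, and from Col4a2 down the 4 symbols lie within 3 peaks of each other.

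Members were spread over 468 of the 21887 protein-coding genes of the table (2.14%), or 5.41% of the 8652 genes with any strong control peak outside gene ends. Of these, 30 had 2 or more members, and Farp1 and Myo10 had 3 each, with 12 and 14 control peaks. Members were most numerous on chromosome 2, with 43, and 5 lay on X and 2 on Y. As a check of the label, 9 of 12 fibroblast marker genes had a strong control peak outside gene ends and 0 had a member. Of other cell types, 10 of 12 endothelial, 6 of 12 keratinocyte and 5 of 10 myeloid markers and 1 of 9 lymphocyte markers had such a peak, as had 6 of 8 neuron, 5 of 9 pericyte and smooth muscle, 4 of 10 melanocyte and Schwann, 3 of 10 skeletal muscle and 3 of 8 adipocyte markers. Over all protein-coding genes the share was 39.5%. Members lay at Flt1 (3 in each library), Tcf7 (3, 1, 3 and 1), Rgs5 (4, 2, 2 and 2) and Notch3 (5, 3, 5 and 4), which count as endothelial, lymphocyte and pericyte markers. A peak outside gene ends does not show that a gene is expressed, so the label could not be checked further here, and the part of other cells in these counts was not tested.

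When clusters were built afresh from each library, those of 3 or more and of 5 or more peaks were most numerous in control and vehicle. Clusters of 3 or more peaks numbered 1070 in control, 939 in Sod2-/- cells, 1021 with vehicle and 922 with rotenone, and those of 5 or more 146, 119, 134 and 92. The order did not hold for the densest, with 14, 11, 10 and 11 clusters of 8 or more and 3, 5, 4 and 5 of 10 or more. Of each library's 500 densest clusters, 69.4% of control's overlapped one of vehicle's (interval 65.2 to 73.3) and 68.0% of the knockout's one of rotenone's (63.8 to 71.9). The other pairs shared less: 54.6% of control's overlapped the knockout's (50.2 to 58.9), 54.8% rotenone's (50.4 to 59.1), and of vehicle's 53.4% overlapped rotenone's and 51.8% the knockout's. Of the 500 members, 194 (38.8%) were among the densest 500 of all 4 libraries, Foxk1, Itpr1, Uck2, Col4a2, Nt5e, Myo1e, Mmp2, Pdpn and Itga8 among them, while Lrig1, Phc2, Notch1, Notch2 and Egfr were not.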

How the data were processed

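ATAC-seq peaks of 4 libraries of dermal fibroblasts (control, knockout, vehicle and rotenone, 1 library per group) were analysed. The authors deposited 1 peak list per library, called separately; MACS2, HOMER, bedtools, Bowtie2 and build mm10 are named in the submitters' processing notes, with versions and settings not given in the sources used here. Each deposited list gives a fold enrichment, which is a ratio over local background, and −log10 p and −log10 q values, read in the MACS2 column order; the deposited score was not used. Depth is unknown, and read counts were not used here, so values were ranked and summed only within a list.

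Strong peaks were the 30000 with the highest −log10 p of each list (ties by fold). Peaks with a midpoint within 1000 bp of an end of any of 21887 protein-coding genes (RefSeq, GRCm38.p6) were dropped, and the rest were joined at gaps of up to 12500 bp. A peak belonged to a cluster, or had a partner, at an overlap of 1 bp or more. Background shares are over all 1070 clusters of 3 or more control peaks. Of 432 list and marker genes, 431 matched the table. The members and lists were chosen with earlier results of these data known. Named clusters are the 20 with most peaks, the 10 largest falls and rises in count per comparison, up to 4 genes per list, the 3 on each side of the limit and any at Sod2, AP-1 genes, Igf1, Cdkn2a or Cdkn1a, without predicted genes among falls and rises; BC035044, Timp2, Tgfbr3, Eln, Tnc, Fbln5, Insr, marker genes, Farp1, Myo10 and the printed windows were added after their values were seen, and not all clusters under the rule are described. The joining and overlap code was checked on simulated peaks and returned the planted clusters. Alternatives were 15000 or 60000 strong peaks, ranking by fold, gaps of 5000 and 25000 bp, a 2500 bp gene end window or none, 250 or 1000 members, all strong peaks counted, 50% coverage, autosomes only, merging of close peaks, and clusters taken from vehicle. The software was Python 3.11.15 (pandas 2.3.3, numpy 2.4.6, matplotlib 3.10.9, scipy 1.17.1).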

Additional observations from a re-analysis of the deposited data

How the results depend on the processing

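The 9 summary values were recomputed under 12 of the 14 alternatives. Counting all strong peaks bears on 4 of them, clusters from vehicle on 6, and the removal of the 23 clusters that stand apart, chosen after seeing the data, on 7. Of 125 recomputed values 96 stayed within the 95% interval of the reported value and 29 did not. A change of direction could be scored only for the totals given per 100 peaks, and 0 of these changed. The other values are shares, for which no direction was scored. The share of members with 1.5-fold or more fewer peaks in rotenone than in vehicle (26.2%) was 33.4% with 15000 strong peaks, 31.8% with a gap of 5000 bp, 19.2% with no peak dropped at gene ends, 19.2% with 250 members, 34.9% with 1000 members and 36.0% with clusters from vehicle. For the knockout against control (35.2%) it was 43.8% with 15000 peaks, 44.8% with the 5000 bp gap, 26.0% with no peak dropped, 47.7% with 1000 members and 28.4% with clusters from vehicle. Control member peaks with a strong partner in vehicle (86.8%) were 89.8% with 15000 peaks and 88.5% with no peak dropped. In the knockout (75.9%) they were 71.5% with 60000 peaks, 73.6% with a gap of 25000 bp, 73.8% with 1000 members, 70.6% when 50% of the peak had to be covered and 74.1% without the 23 clusters. In rotenone (74.0%) they were 76.3% with 15000 peaks, 70.0% with 60000, 71.8% with the 25000 bp gap, 76.8% with no peak dropped and 68.3% with the coverage rule. The overlap of the densest knockout and rotenone clusters (68.0%) was 59.2% with 60000 peaks and 61.6% with the 5000 bp gap, and that of control and the knockout (54.6%) was 50.0% when ranked by fold and 47.0% with the 5000 bp gap. With clusters taken from vehicle, rotenone had 77.0 peaks per 100 of vehicle (86.8 as reported) and the knockout 87.3 per 100 of control (80.0 as reported): each comparison reads lower when its own reference library chose the clusters. The cause of the other shifts was not tested.

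For named clusters, 222 of 360 recomputed differences stayed within 1 peak of the reported value, 123 moved by more and 15 turned direction. Of the 30 largest falls, 28 moved with 15000 peaks (range -2 to 0), 21 with 60000 and 20 when ranked by fold. With 15000 strong peaks those that turned were knockout minus control at Pde4b (-3), rotenone minus vehicle at Xylt1 (-2), Cmklr1 (-1) and Gsn (-1), and knockout minus vehicle at Olfr161 (-1). With 60000 they were knockout minus control at Nt5e (-1) and Pde4b (-3), rotenone minus vehicle at Phc2 (1) and Frmd8 (-2), and knockout minus vehicle at Foxk1 (2), Frmd8 (-1) and Nt5e (-1). Ranked by fold they were rotenone minus vehicle at Tmprss2 (-1) and knockout minus vehicle at Hhat (2) and Synpo (1). No paired analysis was possible because each group has 1 library, and for the same reason leaving out a library was not run. The lists carry no read counts, and depth is not set beside the differences.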

Other observations

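Among the members not described above, the cluster near Hhat, the acyltransferase that modifies Hedgehog ligands, held 9 strong peaks in control, 6 in Sod2-/- cells, 9 with vehicle and 7 with rotenone (chr1:192778696-192807165, 21711 bp from the gene). Irs2, an adaptor of the insulin receptor, had 8, 7, 6 and 6 peaks in the same order (chr8:10925565-10991364). Bcr had 7, 6, 7 and 7 (chr10:75091448-75129737), Abtb2 7, 6, 7 and 6 (chr2:103661709-103706743), and Elmo1, a partner of DOCK proteins in Rac activation, 7, 6, 7 and 6 (chr13:20288419-20306754). Dlgap1 had 7, 7, 6 and 6 (chr17:70719948-70754159), and Fmn1, a formin of actin filaments, had 5, 6, 4 and 5 (chr2:113420782-113457043). Within each of these 7 clusters the counts of the libraries lay within 3 peaks of each other. Such a difference can still reach the 1.5-fold limit. The knockout did so at Hhat, with 6 peaks against 9 in control and vehicle, and at Fmn1, with 6 against 4 in vehicle.

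In Wdr25 (chr12:108902991-108916303) the counts were 4 in control, 0 in Sod2-/- cells, 3 with vehicle and 1 with rotenone. Hebp1, which encodes a heme-binding protein, had 4, 2, 5 and 1 (chr6:135138829-135154047), and Cmip, a signalling adaptor, also had 4, 2, 5 and 1 (chr8:117454559-117475218).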
